A study of Mus musculus with 8 samples.

Results

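The line by capmatinib interaction was measured in 2 mouse malignant peripheral nerve sheath tumor (MPNST) lines, NF1-MET and NF1-MET;sgP53. An MPNST is a sarcoma of the nerve sheath that arises in neurofibromatosis type 1. For each gene, the log2 response to capmatinib (capmatinib over vehicle) in NF1-MET;sgP53 was compared with the same response in NF1-MET, so that an interaction above 0 means a response that was more positive in NF1-MET;sgP53 and an interaction below 0 one that was more negative. By construction the same value is the line difference (NF1-MET;sgP53 over NF1-MET) in capmatinib minus the line difference in vehicle. All 8 libraries of the series entered, and a gene was a member when it had at least 10 counts in at least 2 of them, which held for 14497 of the 50600 genes listed.

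The 4 groups of 2 libraries were vehicle-treated (DMSO) NF1-MET, capmatinib-treated NF1-MET and the same pair for NF1-MET;sgP53, with capmatinib at 100 nM and every culture treated for 24 h in 10% serum. NF1-MET came from a mouse tumor with *Nf1* loss and *Met* amplification, and the labels give its genotype as WT, beside Trp53 KO for the other line. NF1-MET;sgP53 was made from it by lentiviral CRISPR-Cas9 with 1 guide against *Trp53* exon 4 and puromycin selection. Both lines therefore share *Nf1* loss and *Met* amplification, and the study describes a spontaneous *Cdkn2a* deletion in NF1-MET. Each genotype was 1 line, so p53 loss and any other difference between the lines cannot be told apart. An empty-vector line is also described, and its relation to the NF1-MET libraries is not given in the sources used here. The labels call the replicates biological, and the methods describe duplicate treatment of cells plated in one format, so p-values measure the spread between such cultures. The question that the design can pose is which part of the response to MET inhibition differed between these 2 lines.

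MET is the receptor for hepatocyte growth factor and signals through RAS and ERK, PI3K and AKT, and STAT3. Capmatinib inhibits its kinase. p53 is a stress-activated transcription factor whose targets include *Cdkn1a* and *Mdm2*. Contractile genes of smooth muscle are driven by serum response factor (SRF) with its actin-sensing cofactors MRTF and myocardin, which share upstream inputs with YAP and the TEAD factors, and SRF is also the partner of ERK-activated ternary complex factors at early-response genes. SRF binds a short DNA element, the CArG box.

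Library totals lay between 30.1 M and 42.8 M counts, and scaling factors (TMM) between 0.898 and 1.10. The share of counts on *Gm42418*, which overlaps a ribosomal RNA gene, ranged from 1.11% to 13.1%, and both the lowest value (1.11%) and one of 10.0% belonged to capmatinib-treated NF1-MET;sgP53, so the libraries of that group stood apart from each other in it. The level of a gene is in counts per M counts of the scaled library (CPM). The test was edgeR's quasi-likelihood test, fitted to all 8 libraries, with Benjamini-Hochberg adjustment over the 14497 genes, and a gene with an adjusted p under 0.05 is called. Of the Schwann lineage markers that the MPNST label would bring, *Sox10* had 0 to 7 counts in a library and *Ngfr* 0 to 5. Both were thus near 0 in these cultures.

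Of the other cell types, 4 of 8 immune, 1 of 6 endothelial and 1 of 6 epithelial markers had no count in any library. Summed levels were 1.77 to 2.12 CPM for the immune list over all groups and 0.326 to 0.578 CPM for the endothelial list. The epithelial list summed to 0.633 to 0.777 CPM in vehicle-treated NF1-MET, 0.374 to 0.494 CPM in vehicle-treated NF1-MET;sgP53, and 0.0276 to 0.284 CPM in the capmatinib groups. None of the 4 markers from these lists that were tested was called in the interaction by edgeR's test, and 0 of them reached an unadjusted p under 0.05 there or in the DESeq2 Wald test. In bulk RNA, fewer cells of a type and less RNA per cell cannot be told apart.

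*Trp53* (chromosome 11, 69580359 to 69591873 in mm10) was read at 182 and 193 CPM in vehicle-treated and 126 and 128 CPM in capmatinib-treated NF1-MET, with 97.5 and 100.1 CPM in vehicle-treated and 68.00 and 68.8 CPM in capmatinib-treated NF1-MET;sgP53. Every library of NF1-MET;sgP53 was below every library of NF1-MET, and the transcript fell with capmatinib in both lines. Its interaction was 0.032 (SE 0.047, adjusted p = 0.765 in edgeR's test), so a difference in response was not detected. *Cdkn1a*, which encodes the cell cycle inhibitor p21, had 92.9 and 87.2 CPM and then 54.4 and 55.01 CPM in NF1-MET (vehicle, then capmatinib) against 29.5 and 27.1 CPM and then 13.4 and 14.8 CPM in NF1-MET;sgP53. It fell in both lines and by more in NF1-MET;sgP53 (interaction -0.28, SE 0.074, adjusted p = 0.0148), a call that was lost in 5 of 18 alternatives of the processing. *Met* itself fell from 352 and 362 to 230.3 and 232 CPM in NF1-MET and from 344 and 342 to 249 and 246 CPM in NF1-MET;sgP53. The fall was smaller in NF1-MET;sgP53 (interaction 0.16, SE 0.036, adjusted p = 0.00565 in edgeR's test), a call that was lost in 2 of the 18 alternatives.

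Capmatinib changed most genes in each line: 69.3% of the genes tested were called for the response in NF1-MET, and the share was 68.4% in the other line. Across genes the responses had a Pearson correlation of 0.898, a description over 14497 genes that are not independent. The interaction was called for 1407 genes, 9.71% of those tested, with 558 above 0 (3.85%) and 849 below 0 (5.86%). The division between the directions depended on the scaling of the libraries, and 295 genes (2.03%) were called with one sign under all 5 scalings tried, 186 above 0 and 109 below. Differences were mostly small: 69 called genes reached 2-fold, 25 above 0 and 44 below. With library totals in place of the scaling factors, the counts were 192 above 0 and 123 below, and with ribosomal RNA linked genes left out of the scaling 914 and 650. Without NF1-MET;sgP53 capmatinib replicate 2, the library with the lowest *Gm42418* share, they were 713 and 509. In the plot of the responses, most called genes lie in the quadrants of equal sign. Those of opposite sign hold 79 of the genes called above 0 and 93 of those called below 0.

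**Figure D1:**
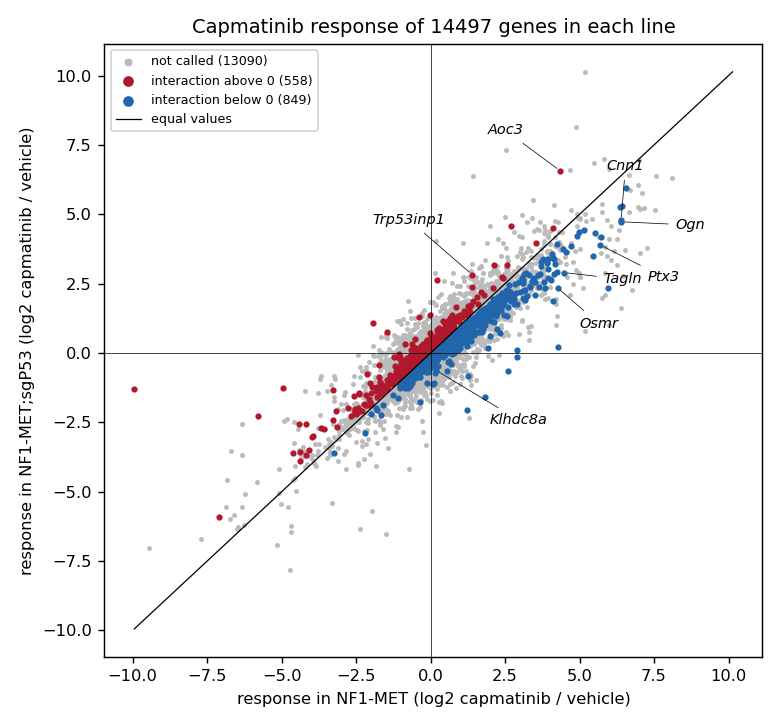
Response of each of 14497 genes to capmatinib in NF1-MET (x axis) and NF1-MET;sgP53 (y axis), both as log2 of capmatinib over vehicle. Red points are the 558 genes called above 0 in the interaction, blue points the 849 called below 0, grey points the rest, and the diagonal marks equal responses. Strongly induced genes such as *Cnn1*, *Ogn*, *Ptx3* and *Osmr* lie under the diagonal.

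The genes called below 0 were chiefly genes induced less in NF1-MET;sgP53. Of the 849, 552 (65.0%) had positive responses in both lines with the smaller one in NF1-MET;sgP53, 204 (24.0%) had negative responses in both with the larger fall in NF1-MET;sgP53, and 93 had responses of opposite sign. Of the 558 genes above 0, 306 (54.8%) had negative responses in both lines with the smaller fall in NF1-MET;sgP53, 173 (31.0%) a larger rise there, and 79 responses of opposite sign. Responses called in opposite directions were rare, at 21 genes above 0 and 19 below.

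Read the other way, the line difference was called for 24.7% of genes in vehicle and for 12.9% in capmatinib. Among genes called in the interaction, its size was greater in vehicle than in capmatinib for 436 of 558 genes above 0 (78.1%) and 667 of 849 below (78.6%), against 59.3% of all genes tested. A line difference was called in vehicle and not in capmatinib for 788 of the 1407 genes (56.0%), in capmatinib and not in vehicle for 196 (13.9%), in both for 361 (25.7%) and in neither for 62 (4.41%). The call in one treatment and not in the other is by itself no test. The test of the difference is the interaction.

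**Figure D2:**
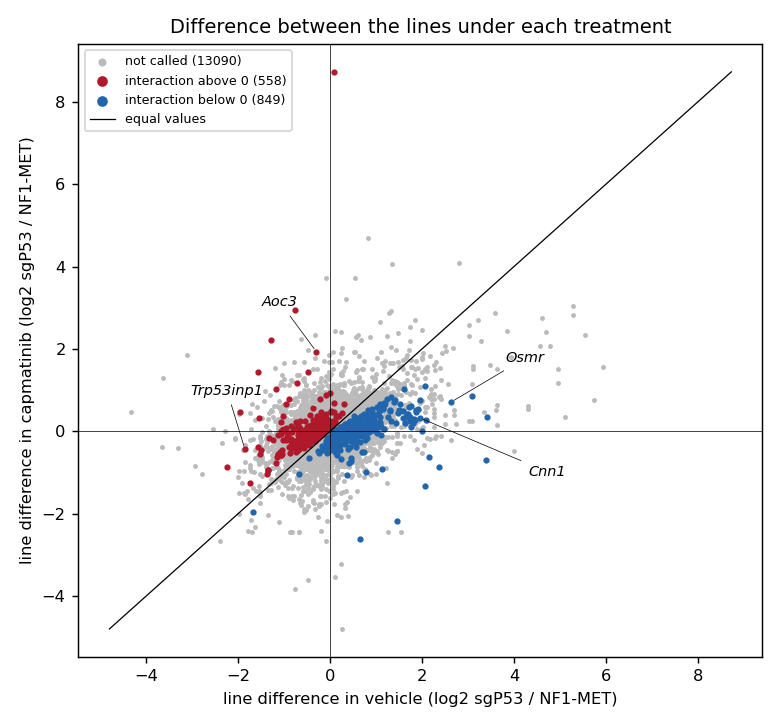
Line difference (log2 of NF1-MET;sgP53 over NF1-MET) in vehicle (x axis) and in capmatinib (y axis) for the 14497 genes tested, with the colors of the interaction calls (558 above 0 in red, 849 below 0 in blue) and a diagonal of equal values. Most called genes lie nearer to 0 along y than along x, with exceptions such as *Aoc3*.

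Of the 15 largest interactions below 0, 4 were in smooth muscle contractile genes. *Cnn1*, which encodes the actin-binding protein calponin, rose from 1.60 and 2.01 CPM to 153 and 153 CPM in NF1-MET and from 7.36 and 6.69 CPM to 196 and 188 CPM in NF1-MET;sgP53. Vehicle levels were higher in NF1-MET;sgP53 by 1.95 on the log2 scale, whereas capmatinib levels differed by 0.33, and the interaction was -1.62 (SE 0.11, adjusted p = 1.16e-10). *Tagln* (transgelin, an actin crosslinker) went from 34.2 and 36.3 to 785 and 782 CPM in NF1-MET and from 124 and 129.9 to 949 and 949.7 CPM in NF1-MET;sgP53, which is an interaction of -1.57 (SE 0.041, adjusted p = 7.76e-19). *Myl9*, a regulatory myosin light chain, went from 7.99 and 8.43 to 439.6 and 425 CPM and from 29.7 and 28.98 to 536 and 529.7 CPM in the same order, with an interaction of -1.53 (SE 0.051, adjusted p = 1.12e-16). In all of these genes the libraries of the 4 groups did not overlap, and the highest level was in capmatinib-treated NF1-MET;sgP53, although the fold induction there was the smaller.

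*Lmod1* (leiomodin, an actin filament nucleator) rose from 1.29 and 1.00 CPM to 100.3 and 97.5 CPM in NF1-MET and from 2.18 and 2.93 CPM to 103 and 102 CPM in NF1-MET;sgP53. Its interaction was -1.13 (SE 0.17, adjusted p = 3.90e-05). *Acta2*, smooth muscle alpha-actin, rose from 408 and 416 CPM to 7559 and 7484 CPM in NF1-MET and from 891 and 889 CPM to 8092 and 8188 CPM in NF1-MET;sgP53. The lines thus started 1.11 apart on the log2 scale and ended 0.11 apart, an interaction of -0.998 (SE 0.021, adjusted p = 1.39e-20). *Actg2*, the gamma smooth muscle actin, had an interaction of -0.69 (SE 0.080). Actin genes share long stretches of sequence, and reads could have been divided among them in counting. Exons of *Tagln* overlap *Pcsk7* on the other strand, and the strand setting of the counting is not given in the sources used here.

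Of the 27 contractile genes tested, 26 rose with capmatinib in each line. In the interaction 15 were called below 0, 3 above 0 and 9 were not called, where the shares over all genes tested were 5.86% below 0 and 3.85% above 0, and the median was -0.22 against -0.03 over all genes tested. The calls below 0 included weaker ones in broadly expressed members, among them *Cnn2*, *Tpm1*, *Tpm2*, *Tpm4*, *Cald1*, *Csrp1* and *Flnc*. With library totals the counts were 6 below 0 and 2 above 0 (median -0.14), and 1 was above 0 without NF1-MET vehicle replicate 2 or NF1-MET;sgP53 vehicle replicate 1. The exceptions above 0 were *Aoc3*, *Itga8* and *Synpo2*. *Itga8*, an integrin chain, rose from 16.8 and 16.5 to 293 and 285 CPM in NF1-MET and from 9.75 and 9.67 to 229 and 213 CPM in NF1-MET;sgP53 (interaction 0.39, SE 0.064).

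**Figure D3:**
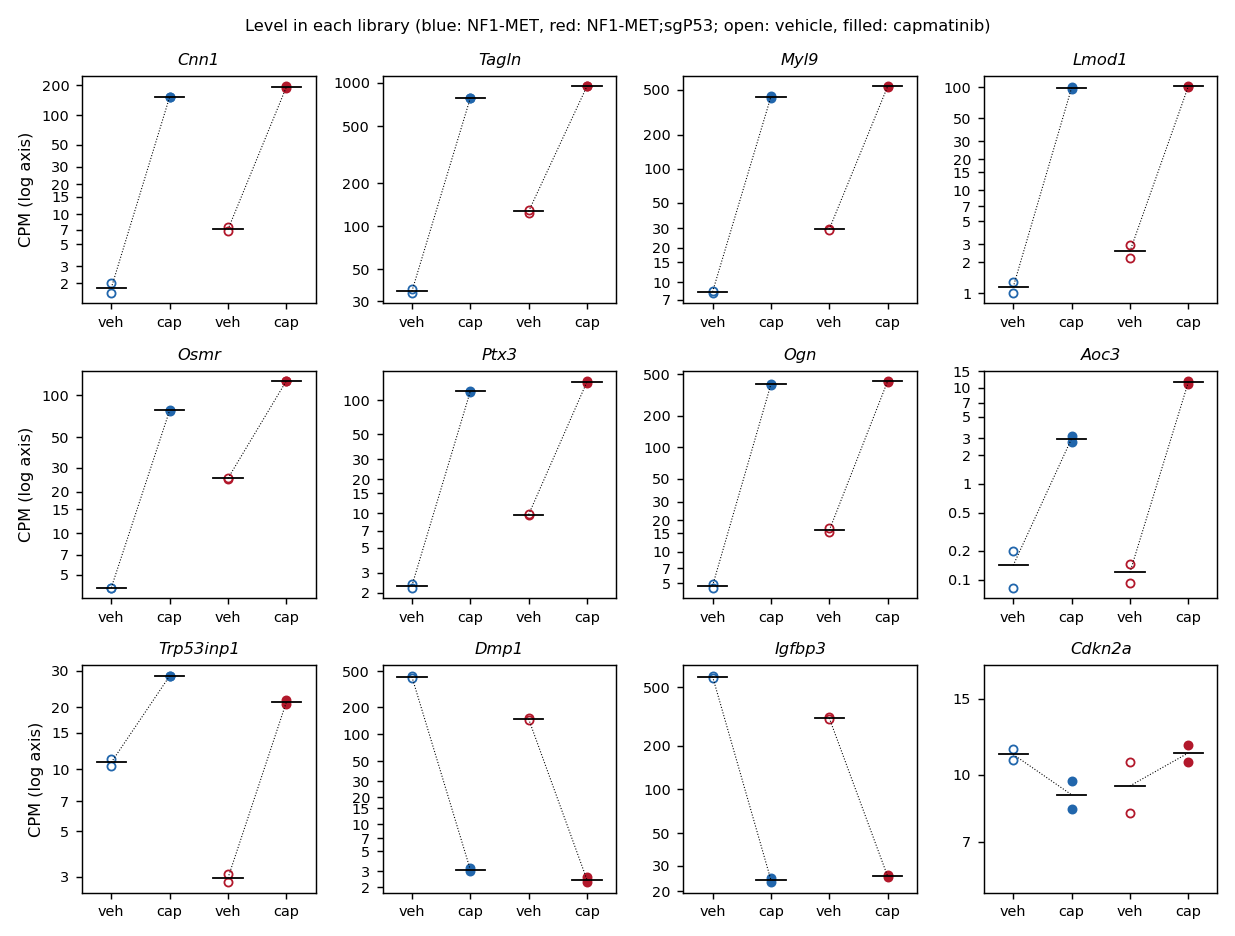
Level (CPM, log axis) of 12 genes in each of the 8 libraries, with blue points for NF1-MET, red points for NF1-MET;sgP53, open points for vehicle (veh) and filled points for capmatinib (cap). Short bars are group means of 2 libraries and dotted lines join the means of one line. *Cnn1*, *Tagln*, *Myl9*, *Lmod1*, *Osmr*, *Ptx3* and *Ogn* start higher in NF1-MET;sgP53 and differ less between the lines under capmatinib, and *Trp53inp1*, *Dmp1* and *Igfbp3* start lower.

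Genes of the SRF, MRTF, YAP and TEAD list, which holds targets and some of the factors themselves, gave 14 of 28 members below 0 and 3 above 0, or 60.7% called against 9.71% of all genes tested and 21.2% of the 3624 genes of highest level. The median was -0.19, and with library totals 5 were below 0 and the median was -0.11. *Ankrd1*, a muscle ankyrin repeat protein and YAP target, rose from 40.4 and 37.4 to 212 and 213 CPM in NF1-MET and from 99.01 and 95.2 to 257 and 250.2 CPM in NF1-MET;sgP53 (interaction -1.07, SE 0.049, adjusted p = 8.08e-14). *Ccn2*, a matricellular protein and a standard YAP readout, rose from 273 and 274 to 2793 and 2733 CPM and from 475 and 481 to 2470.2 and 2472 CPM (interaction -0.97, SE 0.027, adjusted p = 2.19e-18). Unlike *Cnn1*, *Tagln* and *Myl9*, *Ccn2* was lower in NF1-MET;sgP53 than in NF1-MET under capmatinib, by -0.16 on the log2 scale. Its relatives *Ccn5* and *Ccn1* had interactions of -1.09 (SE 0.18) and -0.58 (SE 0.032), and the TEAD cofactor *Vgll3* one of -0.90 (SE 0.045).

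*Srf* itself was read at 70.9 and 69.9 CPM (vehicle) and 105 and 105 CPM (capmatinib) in NF1-MET, and at 82.02 and 85.7 CPM and then 99.4 and 101 CPM in NF1-MET;sgP53 (interaction -0.32, SE 0.046, adjusted p = 2.89e-05). The DNA-binding factor *Tead4* and the coactivator *Wwtr1* (TAZ) were among the 3 members above 0. The promoters of members called below 0 were read to show where a CArG box lies. RefSeq windows on GRCm38.p6 (250 bases before to 50 after a start) were given for 10188 of the tested genes. A CArG box, on either strand, was in a window of 30 of 645 genes called below 0 (4.65%), 7 of 418 called above 0 (1.67%), 168 of all 10188 tested genes (1.65%) and 488 of all 27025 genes with a window (1.81%). Genes called below 0 were chiefly ones induced by capmatinib, and the share in induced genes that were not called was not measured. Of the 21 contractile list genes with a window, 3 had a CArG box (14.3%). The TEAD site GGAATG was in 10 of them (47.6%, against 14.2% of tested genes). A match is a description of the letters and no evidence of binding. The following stretches are from contractile and SRF list members called below 0, read 5′ to 3′ on the strand of the gene and ending before the start, with the CArG box in capitals.
Myl9, chr2:156775273-156775342, plus strand: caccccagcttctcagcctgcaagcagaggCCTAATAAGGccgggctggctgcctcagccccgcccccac
Cnn2, chr10:79988514-79988583, plus strand: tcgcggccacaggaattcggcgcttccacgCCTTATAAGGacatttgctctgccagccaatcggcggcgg
Srf, chr17:46556185-46556274, minus strand: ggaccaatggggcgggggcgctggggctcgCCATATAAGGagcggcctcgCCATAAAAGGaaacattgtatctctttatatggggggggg
Fhl1, chrX:56779551-56779620, plus strand: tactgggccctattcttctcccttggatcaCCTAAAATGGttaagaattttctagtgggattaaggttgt
Filip1l, chr16:57549150-57549219, plus strand: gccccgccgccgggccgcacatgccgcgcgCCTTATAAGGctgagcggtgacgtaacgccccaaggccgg
Vcl, chr14:20929148-20929210, plus strand: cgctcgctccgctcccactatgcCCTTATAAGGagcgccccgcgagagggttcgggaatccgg
The box began at position -161 from the start in *Myl9*, -56 in *Cnn2*, -102 in *Fhl1*, -62 in *Filip1l* and -227 in *Vcl*. *Srf* held 2 of them, at -82 and -62. Among the 15 largest interactions in each direction, 12 genes below 0 and 10 above 0 had a window, and a CArG box was in 1 and 0 of them. The TEAD site GGAATG was in the windows of 3 of 12 genes below 0 and 3 of 10 above 0 (14.2% of tested genes), the AP-1 site TGANTCA in 2 of 12 and 0 of 10 (6.37%), the ETS core CCGGAA in 0 of 12 and 2 of 10 (31.5%), and a p53 half-site in 0 of 12 and 2 of 10 (8.35%), all on either strand. None of them overlapped the boxes printed.

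The largest interactions below 0 under the rule for named genes were in *Osmr* and *Ptx3*, a cytokine receptor and an inflammatory factor. *Osmr* (chromosome 15, 6813577 to 6874969), the oncostatin M receptor chain that signals to STAT3, had 4.05 and 4.04 CPM in vehicle-treated and 78.9 and 76.9 CPM in capmatinib-treated NF1-MET, with 24.8 and 25.4 CPM in vehicle-treated and 128 and 127 CPM in capmatinib-treated NF1-MET;sgP53. The vehicle level in NF1-MET;sgP53 was 2.63 higher on the log2 scale and the capmatinib level 0.71 higher. The interaction was -1.92 (SE 0.072, adjusted p = 1.29e-15). *Ptx3*, a soluble pattern recognition protein, rose from 2.40 and 2.21 to 120.0 and 119 CPM in NF1-MET and from 9.63 and 9.90 to 148 and 143 CPM in NF1-MET;sgP53 (interaction -1.80, SE 0.091, adjusted p = 3.67e-13). Both genes were higher in NF1-MET;sgP53 under either treatment, without overlap.

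*Csf1*, the macrophage growth factor, went from 299.6 and 300.4 to 757 and 759 CPM in NF1-MET and from 519 and 514 to 784 and 793 CPM in NF1-MET;sgP53, which is an interaction of -0.73 (SE 0.033, adjusted p = 6.04e-14). *Cxcl12*, a chemokine for CXCR4-bearing cells, had an interaction of -0.64 (SE 0.040). In the chemokine and cytokine list, 4 of 27 members were called below 0 and 2 above 0 (22.2%, against 9.71% of all genes tested), with a median of -0.22, and with library totals 3 were called, all below 0. Without 1 library the median ranged from -0.25 to -0.07, with the value nearest to 0 without NF1-MET;sgP53 vehicle replicate 1 and -0.085 without NF1-MET capmatinib replicate 1. It was -0.13 without NF1-MET;sgP53 vehicle replicate 2 and -0.03 when 10 counts in 7 of 8 libraries were required. Interferon-stimulated genes had a median line difference of 1.01 in vehicle and 1.04 in capmatinib, and of 32 tested 3 were called below 0 and 1 above 0 in the interaction (12.5%, against 9.71% of all genes tested), with a median of 0.13. With library totals 2 were called, both above 0. Without NF1-MET vehicle replicate 2 edgeR's test called 0 members, with 2 above 0 and 3 below 0 at an unadjusted p under 0.05, and the DESeq2 Wald test on all libraries called 2 below 0. *Isg15*, a ubiquitin-like modifier, was at 1.16 and 1.18 CPM (vehicle) and 2.67 and 2.47 CPM (capmatinib) in NF1-MET, and at 3.81 and 3.58 CPM and then 8.60 and 9.04 CPM in NF1-MET;sgP53 (interaction 0.13, SE 0.23, adjusted p = 0.806). *Parp14* was called below 0 (-0.65, SE 0.17) and *Dhx58*, an RNA sensor, above 0 (0.93, SE 0.29, adjusted p = 0.0405). Over the fits without 1 library *Parp14* ranged from -0.85 to -0.385 (without NF1-MET;sgP53 vehicle replicate 2) and *Dhx58* from 0.60 (without NF1-MET capmatinib replicate 1) to 1.53 (without NF1-MET capmatinib replicate 2). Of 21 genes of MHC class I presentation 3 were called above 0 (14.3%, against 9.71% of all genes tested in either direction), *B2m*, *Calr* and *Pdia3*, each by no more than 0.21. With library totals edgeR's test called none of them, while 3 members had an unadjusted p under 0.05.

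Among matrix genes, *Ogn* and *Postn* had their levels in the same order over the 4 groups as *Cnn1*. *Ogn*, the small proteoglycan osteoglycin, rose from 4.96 and 4.54 to 404 and 395 CPM in NF1-MET and from 15.4 and 16.7 to 431 and 424 CPM in NF1-MET;sgP53 (interaction -1.67, SE 0.066, adjusted p = 3.68e-15). *Postn* (periostin, a matricellular protein) rose from 7.58 and 7.15 to 231 and 229 CPM and from 14.2 and 13.1 to 281 and 283 CPM, with an interaction of -0.59 (SE 0.065, adjusted p = 6.53e-07). *Mfap5*, *Omd*, *Fbln2* and *Fbln5*, proteins of microfibrils, bone matrix and elastic fibers, had interactions of -0.85, -0.74, -0.49 and -0.49. Of 34 proteoglycans and matrix glycoproteins, 15 were called below 0 and 7 above 0 (64.7%, against 9.71% of all genes tested), with a median of -0.31, and with library totals 5 and 3. Those above 0 included *Sparcl1*, an antiadhesive glycoprotein that fell in both lines, from 113 and 115 to 60.7 and 62.5 CPM in NF1-MET and from 52.4 and 55.7 to 43.4 and 40.2 CPM in NF1-MET;sgP53 (interaction 0.51, SE 0.055). *Smoc2*, a matricellular calcium-binding protein, had an interaction of 0.33 (SE 0.047).

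Among 25 collagen chains 7 were called below 0 and 1 above 0, where 5.86% and 3.85% of all genes tested were, with a median of -0.10, and with library totals 2 and 1. Without 1 library the median ranged from -0.16 (without NF1-MET vehicle replicate 1) to -0.020 (without NF1-MET;sgP53 capmatinib replicate 2), and it was -0.039 without NF1-MET vehicle replicate 2, -0.053 without NF1-MET capmatinib replicate 2 and -0.063 without NF1-MET;sgP53 vehicle replicate 2. *Col11a1*, a fibril-regulating chain, rose from 18.2 and 18.96 to 398 and 401 CPM in NF1-MET and from 33.4 and 34.6 to 461 and 445 CPM in NF1-MET;sgP53 (interaction -0.69, SE 0.047, adjusted p = 1.76e-10). *Col1a1*, the main chain of collagen I, rose from 2411 and 2486 to 15269 and 15523 CPM and from 3269 and 3290.4 to 15151 and 15209 CPM (interaction -0.44, SE 0.020). Vehicle levels of *Col1a1* were 0.42 higher in NF1-MET;sgP53 on the log2 scale, and in capmatinib no line difference was detected (-0.020). *Col12a1* had an interaction of -0.48 (SE 0.046). The exception was *Col27a1*, which was 11.05 and 10.6 CPM and then 11.02 and 11.04 CPM in NF1-MET, where no response was detected, and rose from 6.40 and 7.47 to 10.4 and 9.78 CPM in NF1-MET;sgP53 (interaction 0.51, SE 0.12, adjusted p = 0.00850).

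Integrin and focal adhesion genes were called in both directions. Of 33 members, 9 were called below 0 and 6 above 0 (45.5%, against 9.71% of all genes tested), and the median of -0.06 became 0.01 with library totals, when edgeR's test called 0 below 0 (0 also at an unadjusted p under 0.05) and 3 above 0, while the DESeq2 Wald test called 7 and 6. The 9 below 0 were *Itgb5* and the cytoplasmic linkers *Tln1*, *Tln2*, *Zyx*, *Parva*, *Fermt2*, *Tns3*, *Actn1* and *Flna*. The 6 above 0 were the alpha chains *Itga3*, *Itga4*, *Itga6* and *Itga7* and the linkers *Tns1* and *Tes*. *Itga7*, a laminin receptor chain, fell from 21.1 and 21.01 to 13.2 and 12.7 CPM in NF1-MET and from 17.98 and 18.7 to 16.6 and 16.2 CPM in NF1-MET;sgP53 (interaction 0.54, SE 0.091, adjusted p = 2.52e-04). *Itga4* was 16.1 and 14.8 CPM (vehicle) and 10.7 and 12.2 CPM (capmatinib) in NF1-MET, and 9.34 and 8.73 CPM and then 9.84 and 9.01 CPM in NF1-MET;sgP53, where no response was detected (interaction 0.49, SE 0.12).

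The remaining genes of the 15 largest interactions below 0 are of mixed function. *Runx1t1*, a transcriptional corepressor, rose from 2.09 and 2.71 to 33.5 and 35.5 CPM in NF1-MET and from 7.88 and 8.29 to 41.6 and 40.9 CPM in NF1-MET;sgP53 (interaction -1.49, SE 0.13, adjusted p = 9.76e-09). *Vegfc*, a lymphatic growth factor, rose from 1.07 and 1.48 to 12.5 and 12.03 CPM and from 2.59 and 2.97 to 11.3 and 11.7 CPM (interaction -1.21, SE 0.20). *Cyp1b1*, a cytochrome P450, rose from 0.331 and 0.376 to 15.5 and 17.2 CPM and from 1.45 and 1.33 to 28.5 and 27.01 CPM (interaction -1.21, SE 0.28). The others were *Otulinl* (-1.34), *Pdgfrl* (-1.29), *Ablim1*, an actin-binding LIM protein (-1.25), *Apol10b* (-1.25) and *Siglecg*, a sialic acid receptor (-1.23). All of these were induced in both lines from low vehicle levels that were lower in NF1-MET. *Pdgfrl* and *Ablim1* each lost the call in 1 alternative (without NF1-MET vehicle replicate 1 and replicate 2, respectively) and over the fits without 1 library reached as close to 0 as -0.995 and -0.76.

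Among genes with a group mean of at least 10 CPM that were called under all scalings, the largest interaction above 0 was that of *Aoc3*, a vascular amine oxidase also found in smooth muscle. Its vehicle counts were 3 and 8 in NF1-MET against 5 and 4 in NF1-MET;sgP53. Capmatinib levels were 2.75 and 3.18 CPM in NF1-MET and 11.9 and 11.1 CPM in NF1-MET;sgP53, without overlap and 1.94 apart on the log2 scale. The interaction of 2.23 (SE 0.68, adjusted p = 0.0378) rests on few vehicle counts, ranged from 1.45 to 2.70 over the fits without 1 library, and lost its call in 5 alternatives.

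*Trp53inp1*, a p53 target that promotes cell cycle arrest and autophagy, was lower in NF1-MET;sgP53 before treatment and more strongly induced. It had 11.2 and 10.4 CPM in vehicle-treated and 28.2 and 28.5 CPM in capmatinib-treated NF1-MET, with 2.82 and 3.11 CPM in vehicle-treated and 21.6 and 20.7 CPM in capmatinib-treated NF1-MET;sgP53. The line difference went from -1.85 in vehicle to -0.42 in capmatinib, and the interaction was 1.43 (SE 0.12, adjusted p = 5.29e-09). *Dmpk*, the myotonic dystrophy protein kinase, rose from 35.98 and 36.3 to 95.1 and 94.3 CPM in NF1-MET and from 19.6 and 20.4 to 103 and 104 CPM in NF1-MET;sgP53 (interaction 0.98, SE 0.052, adjusted p = 1.08e-12). *Serping1*, the C1 inhibitor of complement, rose from 2.98 and 2.53 to 10.95 and 12.8 CPM and from 1.16 and 1.15 to 11.3 and 9.51 CPM (interaction 1.04, SE 0.22). In each of these the lower vehicle level lay in NF1-MET;sgP53.

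The other genes of this group fell in both lines, and by less in NF1-MET;sgP53, where all but *Itih5* began from a lower level. *Dmp1*, a phosphoprotein of mineralizing matrix, fell from 448 and 418 to 3.04 and 3.25 CPM in NF1-MET and from 152 and 143 to 2.58 and 2.26 CPM in NF1-MET;sgP53 (interaction 1.17, SE 0.12, adjusted p = 3.32e-07). *Igfbp3*, a binding protein of insulin-like growth factors, fell from 604 and 585 to 23.02 and 24.9 CPM and from 312 and 305 to 25.7 and 25.1 CPM (interaction 1.03, SE 0.050, adjusted p = 2.76e-13). *Nppb*, the B-type natriuretic peptide, fell from 20.8 and 19.9 to 2.46 and 2.06 CPM and from 9.48 and 9.83 to 2.27 and 2.23 CPM (interaction 1.09, SE 0.18). Capmatinib levels of *Igfbp3* and *Nppb* were 0.079 and 0.015 apart between the lines on the log2 scale, below what the test detected.

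*Gfra1*, the receptor chain for glial cell line-derived neurotrophic factor, had an interaction of 0.81 (SE 0.17), and *Ceacam1*, a cell adhesion molecule, of 0.97 (SE 0.28), which lost its call in 6 alternatives. *Glp1r*, the receptor of glucagon-like peptide 1, had one of 0.86 (SE 0.21), *Nrgn* one of 0.99, *Disp2* one of 0.94, *Fam213a* one of 0.87 and *Arhgap6*, a RhoA GTPase-activating protein whose exons overlap *Hccs* on the other strand, one of 0.79. *Itih5*, a hyaluronan-binding protein, showed no detected line difference in vehicle, at 14.9 and 13.9 CPM in NF1-MET against 13.3 and 13.9 CPM in NF1-MET;sgP53, and fell to 2.67 and 2.73 CPM and 5.25 and 4.69 CPM (interaction 0.95, SE 0.15, adjusted p = 8.40e-05). With *Aoc3* it was the gene among these 15 whose lines differed in capmatinib by more than in vehicle.

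Responses called in opposite directions were seen in 40 of the 1407 genes. Among those with the same limits on level and scaling, the largest was in *Klhdc8a*, a kelch domain gene, which rose from 24.9 and 26.7 to 29.02 and 29.1 CPM in NF1-MET and fell from 37.7 and 37.3 to 23.6 and 25.4 CPM in NF1-MET;sgP53 (interaction -0.79, SE 0.076, adjusted p = 8.74e-08). *Il1rl1*, the receptor of IL-33, rose from 258 and 244 to 279.5 and 275 CPM and fell from 391 and 381 to 297 and 278 CPM (interaction -0.57, SE 0.044, adjusted p = 1.89e-09). The reverse was seen in *Plcb1*, a phospholipase C, which fell from 51.05 and 50.7 to 37.6 and 35.2 CPM and rose from 32.7 and 32.7 to 36.3 and 36.9 CPM (interaction 0.65, SE 0.064). In each of these the lines were further apart in vehicle than in capmatinib.

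*Rgs16*, a regulator of G protein signaling, and *Endod1* also fell in NF1-MET and rose in NF1-MET;sgP53, with interactions of 0.59 (SE 0.045) and 0.52 (SE 0.093). *Cdkn2a*, which encodes p16INK4a and p19ARF, was read at 11.5 and 10.8 CPM in vehicle-treated and 9.65 and 8.33 CPM in capmatinib-treated NF1-MET, with 10.7 and 8.15 CPM in vehicle-treated and 10.7 and 11.7 CPM in capmatinib-treated NF1-MET;sgP53. The libraries of the 4 groups overlapped, with counts of 267 to 431 in a library, and the interaction was 0.59 (SE 0.15, adjusted p = 0.00997). Reads were thus assigned to a gene that the study describes as deleted in NF1-MET, and which part of the gene they cover was not analysed here. Its neighbor *Cdkn2b*, encoding p15INK4b, had an interaction of 0.45 (SE 0.057, adjusted p = 5.25e-06), with 93.03 and 85.3 CPM (vehicle) and 82.01 and 79.8 CPM (capmatinib) in NF1-MET, and 68.5 and 67.4 CPM and then 87.3 and 80.8 CPM in NF1-MET;sgP53.

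In the p53 target list, 6 of 40 members were called above 0 and 5 below 0 (27.5%, against 9.71% of all genes tested), with a median of 0.03, and with library totals 6 and 1. The count below 0 was 2 without NF1-MET;sgP53 vehicle replicate 1 and without NF1-MET;sgP53 capmatinib replicate 1. Those above 0 were *Trp53inp1*, *Mdm2*, *Ccng1* and *Ephx1*, and also *Cdkn2a* and *Cdkn2b*. The list holds these last genes as cell cycle inhibitors, and they are not p53 targets. *Ccng1*, cyclin G1, fell from 178 and 174 to 145 and 143 CPM in NF1-MET and rose from 75.8 and 79.4 to 81.6 and 86.2 CPM in NF1-MET;sgP53 (interaction 0.40, SE 0.048, adjusted p = 2.15e-06). *Mdm2*, the ubiquitin ligase of p53, fell from 106 and 104 to 79.5 and 82.1 CPM in NF1-MET and was 76.6 and 75.2 CPM and then 72.97 and 71.8 CPM in NF1-MET;sgP53, where no response was detected (interaction 0.30, SE 0.045). *Ephx1*, an epoxide hydrolase, had an interaction of 0.41 (SE 0.046).

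The 5 members below 0 were *Cdkn1a*, *Plk2*, *Btg2*, *Phlda3* and *Pvt1*. *Plk2*, a polo-like kinase, rose from 77.9 and 84.1 to 194 and 186 CPM in NF1-MET and from 138 and 137 to 187 and 179.8 CPM in NF1-MET;sgP53 (interaction -0.81, SE 0.049, adjusted p = 2.18e-11). Its vehicle level was the higher in NF1-MET;sgP53. *Zmat3*, an RNA-binding p53 target, was lower in NF1-MET;sgP53 under both treatments (line difference -0.50 and -0.53) and had an interaction of -0.029 (SE 0.048, adjusted p = 0.789). *Sesn2*, a stress-responsive inhibitor of mTORC1, had one of 0.14 (SE 0.071, adjusted p = 0.253).

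Genes of DNA replication fell in both lines, all 43 of them, and 15 were called below 0 with none above 0 by edgeR's test and a median of -0.15. The share called was 34.9%, against 9.71% of all genes tested and 21.2% of the 3624 genes of highest level. At an unadjusted p under 0.05 these counts were 22 and 0, and the DESeq2 Wald test called 7 and 0. Without NF1-MET vehicle replicate 1 or NF1-MET;sgP53 capmatinib replicate 2 the count below 0 was 8, and without NF1-MET capmatinib replicate 1 it was 9. *Mcm10*, a replication initiation factor, fell from 39.5 and 39.9 to 21.5 and 22.3 CPM in NF1-MET and from 46.2 and 43.7 to 18.4 and 18.8 CPM in NF1-MET;sgP53 (interaction -0.42, SE 0.074, adjusted p = 3.68e-04). *Mcm2* and *Mcm3*, helicase subunits, had interactions of -0.23 (SE 0.044) and -0.21 (SE 0.047), and *Rrm2*, the ribonucleotide reductase subunit, one of -0.24 (SE 0.043). In each, the vehicle level was the higher and the capmatinib level the lower in NF1-MET;sgP53. No member was called by edgeR's test when library totals were used, with 1 at an unadjusted p under 0.05 and a median of -0.07. The 39 mitosis genes also fell in both lines, and 1 of them, the kinetochore motor *Cenpe*, was called, above 0 (0.14, SE 0.045), with a median of 0.01. That is 2.56% of the list, under the 9.71% of all genes tested. All 42 ribosome biogenesis genes fell in both lines, and 1 was called, *Ddx18*, below 0 (-0.20, SE 0.058), which at 2.38% is also under the share of all genes. The median of that list was -0.05, or 0.03 with library totals. The calls of *Cenpe* and *Ddx18* were lost in 7 and 11 alternatives.

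**Figure D4:**
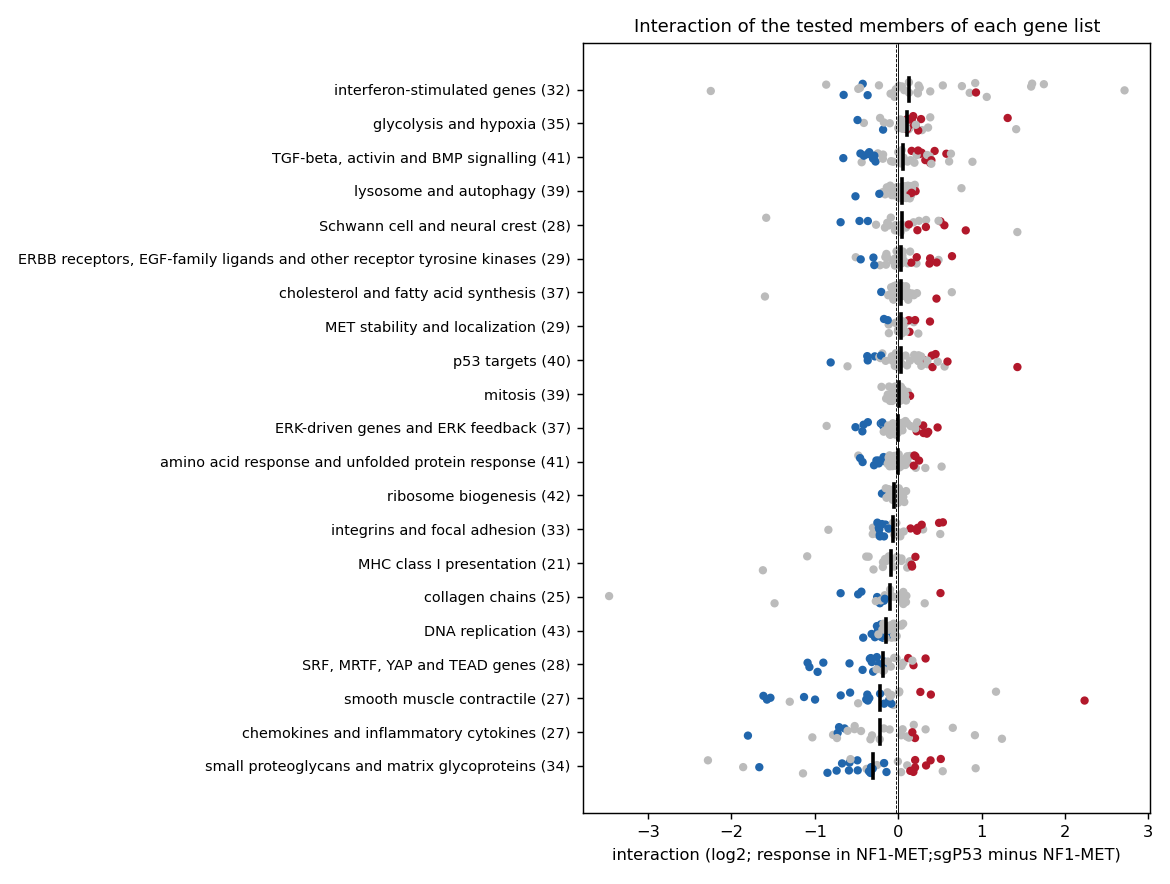
Interaction of each tested member of 21 gene lists (number tested in parentheses), on the log2 scale. Each point is a gene, red if called above 0, blue if called below 0 and grey if not called, thick bars are list medians and the dashed line is the median of all genes tested (-0.03). Contractile, SRF and YAP, proteoglycan and replication lists lie to the left, and the members of the mitosis and ribosome biogenesis lists stay close to 0.

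Of 37 ERK-driven genes 7 were called above 0 and 7 below 0 (37.8%, against 9.71% of all genes tested), with a median of -0.01. With library totals edgeR's test called 4 above 0 and 0 below, with 5 below 0 at an unadjusted p under 0.05, and the median was 0.07. The DESeq2 Wald test called 6 above 0 and 4 below. The count below 0 was 4 without NF1-MET capmatinib replicate 1 and without NF1-MET;sgP53 vehicle replicate 1. The feedback inhibitors *Dusp4* and *Spred1* fell by less in NF1-MET;sgP53. *Dusp4*, an ERK phosphatase, fell from 81.6 and 81.5 to 14.999 and 15.8 CPM in NF1-MET and from 54.5 and 55.9 to 12.8 and 13.7 CPM in NF1-MET;sgP53 (interaction 0.34, SE 0.073, adjusted p = 0.00248). *Spred1* fell from 365 and 368 to 158 and 150.4 CPM and from 284 and 285 to 145 and 149.6 CPM (interaction 0.30, SE 0.040). Vehicle levels of both were lower in NF1-MET;sgP53, by -0.56 and -0.37 as log2 line differences, and the line differences in capmatinib were -0.22 and -0.063.

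Of the ETS factors in the list, *Etv1* had an interaction of 0.47 (SE 0.077) and *Etv4* of -0.21 (SE 0.058), the latter lost in 9 alternatives. *Fos* and *Egr2*, early-response factors that rose in both lines, rose by less in NF1-MET;sgP53, with interactions of -0.51 (SE 0.15, adjusted p = 0.0349) and -0.36 (SE 0.073, adjusted p = 0.00135). The call of *Fos* was lost in 8 alternatives, and its value ranged from -0.72 to -0.31 over the fits without 1 library. *Plau*, the urokinase plasminogen activator, rose from 98.4 and 95.9 to 387 and 396 CPM in NF1-MET and from 127 and 125 to 380.2 and 376 CPM in NF1-MET;sgP53 (interaction -0.43, SE 0.038).

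Among 29 receptor tyrosine kinases and their ligands, 6 were called above 0, *Met* among them, and 3 below 0, where 3.85% of all genes tested were above 0 and 5.86% below. With library totals edgeR's test called 4 above 0 and 0 below, with 2 below 0 at an unadjusted p under 0.05, and the DESeq2 Wald test called 5 and 2. *Hgf*, the ligand of MET, fell from 54.7 and 51.1 to 26.4 and 26.6 CPM in NF1-MET and from 32.9 and 33.5 to 26.7 and 25.3 CPM in NF1-MET;sgP53. The lines were without overlap in vehicle and overlapped in capmatinib (interaction 0.64, SE 0.072, adjusted p = 7.44e-07). *Btc*, a ligand of EGFR, had an interaction of 0.46 (SE 0.091), *Flt1*, a VEGF receptor, of 0.37 (SE 0.064) and *Insr*, the insulin receptor, of 0.38 (SE 0.051). *Ephb2*, an ephrin receptor, was higher in NF1-MET;sgP53 under both treatments and had one of -0.45 (SE 0.073). *Egfr* was not called (0.22, SE 0.084, adjusted p = 0.1098).

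Of 29 genes for MET stability and localization, 4 were called above 0 and 2 below 0. That is 20.7%, against 9.71% of all genes tested and 21.2% of the 3624 genes of highest level. With library totals edgeR's test called 0, with 5 above 0 and 0 below 0 at an unadjusted p under 0.05, and the DESeq2 Wald test called 2 in each direction. *Plxnb1*, a semaphorin receptor that associates with MET, had the largest interaction, 0.38 (SE 0.11, adjusted p = 0.0258), lost in 8 alternatives. *Sh3kbp1*, an adaptor of CBL in receptor endocytosis, fell from 281 and 273 to 195 and 191 CPM in NF1-MET and from 215 and 223 to 168 and 168 CPM in NF1-MET;sgP53 (interaction 0.13, SE 0.040, adjusted p = 0.0313). *Cblb*, a ubiquitin ligase of receptors, had an interaction of 0.19 (SE 0.063, adjusted p = 0.0644). *Prkce*, protein kinase C epsilon, had one of 0.030 (SE 0.11, adjusted p = 0.915). For *Cblb* and *Prkce* a difference in response was thus not detected.

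TGF-beta, activin and BMP genes gave 9 members above 0 and 8 below 0 of 41 (41.5%, against 9.71% of all genes tested), with a median of 0.06, and with library totals 5 and 2, with a median of 0.14. *Bmp2*, a bone morphogenetic protein, fell from 138 and 135 to 8.42 and 7.73 CPM in NF1-MET and from 63.5 and 60.5 to 5.42 and 5.46 CPM in NF1-MET;sgP53 (interaction 0.58, SE 0.089). *Tgfb1*, *Tgfbi* and *Id3*, a ligand and a pair of pathway targets, were above 0 at 0.38, 0.44 and 0.40. The extracellular antagonists *Fstl3* and *Grem1* were below 0.

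Schwann cell and neural crest genes gave 6 of 28 above 0 and 3 below 0 (against 3.85% and 5.86% of all genes tested), and with library totals 4 and 1. The stem and crest factors *Sox9* and *Sox2* fell in both lines and by less in NF1-MET;sgP53, *Sox9* from 66.01 and 64.1 to 16.05 and 16.3 CPM in NF1-MET and from 49.4 and 51.3 to 18.8 and 18.1 CPM in NF1-MET;sgP53 (interaction 0.55, SE 0.071, adjusted p = 6.18e-06). *Sox2* had an interaction of 0.51 (SE 0.066). *Nrcam*, a neuronal adhesion molecule, fell by more in NF1-MET;sgP53 (-0.69, SE 0.15, adjusted p = 0.00264).

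Of metabolic lists, glycolysis and hypoxia genes had 11 of 35 members above 0 and 2 below 0 (against 3.85% and 5.86% of all genes tested), with a median of 0.10. *Pkm*, pyruvate kinase, fell from 2114 and 2089.9 to 1361 and 1367 CPM in NF1-MET and from 1887 and 1901 to 1489 and 1483 CPM in NF1-MET;sgP53 (interaction 0.27, SE 0.025). With library totals 1 member was called, above 0, and without 1 library the count above 0 ranged from 7 (without either NF1-MET vehicle library or NF1-MET;sgP53 vehicle replicate 1) to 12. Amino acid and unfolded protein response genes included biosynthetic and transport genes below 0, such as *Psph* (-0.46), *Pycr1* (-0.43) and *Slc7a5* (-0.23), and chaperones of the endoplasmic reticulum above 0, such as *Hsp90b1* (0.19) and *Calr* (0.21), with 8 below 0 and 4 above 0 of 41 (29.3%, against 9.71% of all genes tested) and a median of -0.01. With library totals the median was 0.07 and edgeR's test called 0 members of either kind, with 5 above 0 and 2 below 0 at an unadjusted p under 0.05, while the DESeq2 Wald test called 4 above 0 and 7 below. Cholesterol and fatty acid synthesis had 1 of 37 in each direction (5.41%, against 9.71% of all genes tested), *Abca1*, a cholesterol exporter (0.46), and *Mvk*, mevalonate kinase (-0.20). The count above 0 was 4 without NF1-MET;sgP53 capmatinib replicate 2 and 6 with ribosomal RNA linked genes left out of the scaling, and *Mvk* was then not called. Lysosome and autophagy genes had 5 of 39 above 0 and 2 below 0. That is 17.9%, against 9.71% of all genes tested and 21.2% of the 3624 genes of highest level. With library totals edgeR's test called 0, with 9 above 0 and 1 below 0 at an unadjusted p under 0.05, and the DESeq2 Wald test called 4 and 1. Without 1 library the count above 0 ranged from 1 (without NF1-MET vehicle replicate 1) to 7 (without NF1-MET;sgP53 vehicle replicate 1).

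The list of 48 genes with the largest treatment changes was taken from the study, which chose them on these samples, so it is not independent of the responses. It held 7 members below 0 and 3 above 0 (20.8%, against 9.71% of all genes tested), with a median of -0.21. Among those above 0 was *Btn1a1*, a butyrophilin, with 75 and 66 counts in vehicle-treated and 1 and 1 in capmatinib-treated NF1-MET, and 22 and 37 counts in vehicle-treated and 5 and 6 in capmatinib-treated NF1-MET;sgP53 (adjusted p = 0.0165). Its fitted interaction depends on so few counts that no fold is given.

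Over all genes the interaction varied with the size of the response. For the 548 genes whose mean response over both lines was above 2 on the log2 scale the median interaction was -0.33, with median responses of 2.93 in NF1-MET against 2.59 in NF1-MET;sgP53. For the 236 genes below -2 it was 0.24, with medians of -2.85 and -2.66. Between -0.5 and 0.5 it was -0.02 over 8630 genes. Relative to the median of all genes, the outer values were -0.30 and 0.26, and they stayed within -0.31 to -0.30 and 0.24 to 0.26 under the other scalings and without NF1-MET;sgP53 capmatinib replicate 2.

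An interaction on the log2 scale compares ratios, and its sign need not be that of the change in CPM. For 79 of the 849 genes below 0 (9.31%) the change in CPM, capmatinib minus vehicle, was nevertheless the higher one in NF1-MET;sgP53 (a larger gain or a smaller loss), and so it was for 20 of the 44 with at least a 2-fold interaction (45.5%). *Cnn1*, *Tagln*, *Myl9*, *Osmr* and *Ptx3* were among them. Of the 558 genes above 0, 11 (1.97%) differed in sign between the scales.

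**Figure D5:**
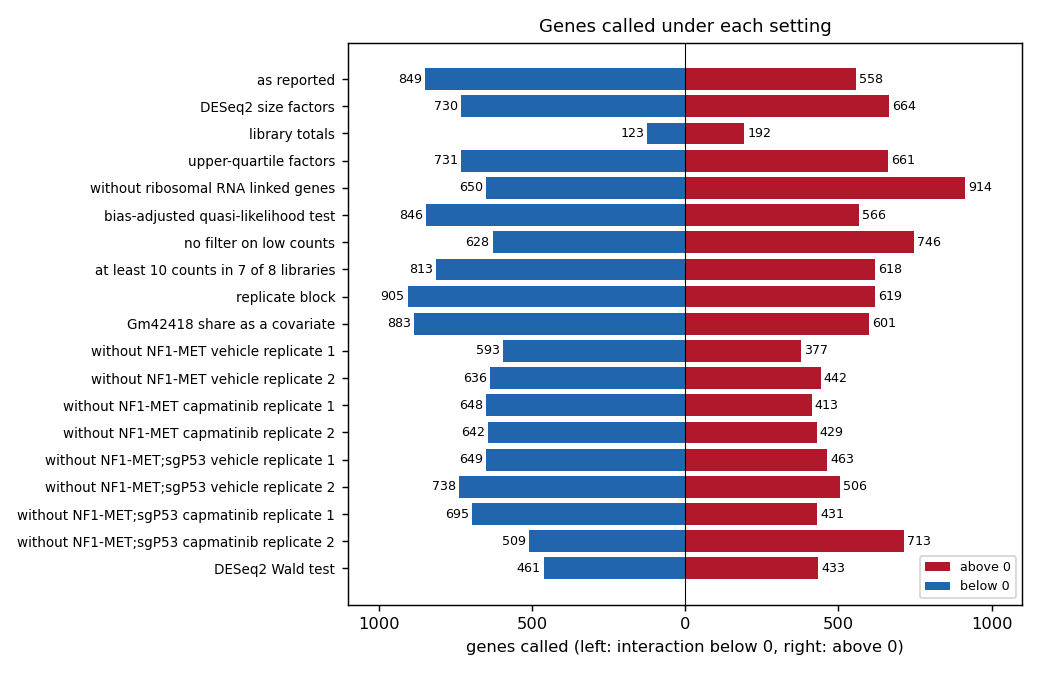
Number of genes called below 0 (blue, left of the center) and above 0 (red, right) in the interaction as reported and under each other setting. The reported fit has 849 and 558, and scaling to library totals leaves 123 and 192.

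The share of genes called rose with the level of the gene. In the 3625 genes of lowest mean level (0.0928 to 2.15 CPM) 0.690% were called, with a median SE of 0.607, and the smallest called interaction was 0.898 in size. In the 3624 genes of highest level (58.1 to 80188 CPM) 21.2% were called, with a median SE of 0.0454. Smaller interactions were thus not detectable at low level at this depth. The count minimum admitted 403 genes with exactly 2 libraries at 10 counts or more, and 581 genes stopped at 1 library. Of 1411 genes tested in which a group had both libraries under 10 counts, 15 were called.

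Some calls at low level or with uneven replicates were outside the rule for named genes and are given because their values were seen. *Wnt4*, a Wnt ligand, had 1 and 1 counts in vehicle-treated and 55 and 65 in capmatinib-treated NF1-MET, and 2 and 4 counts in vehicle-treated and 14 and 15 in capmatinib-treated NF1-MET;sgP53 (adjusted p = 0.0332, lost in 8 alternatives). *Smt3h2-ps*, a processed copy of a SUMO gene that may share reads with its parent, had 128 and 130 counts in vehicle and 0 and 0 in capmatinib in NF1-MET, against 136 and 139 in vehicle and 0 and 104 in capmatinib in NF1-MET;sgP53. It was called (adjusted p = 0.0105) on the strength of 1 library, and it was not called without NF1-MET;sgP53 capmatinib replicate 2 (fitted value -0.058) or without NF1-MET capmatinib replicate 2.

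Counts and medians of the gene lists varied over the fits without 1 library, several of them by over 1.5 times. Contractile genes had medians from -0.33 (without NF1-MET;sgP53 vehicle replicate 1) to -0.17 (without NF1-MET;sgP53 capmatinib replicate 2), the calls above 0 ranged from 1 to 3 and those below 0 ranged from 13 to 16. Integrin and focal adhesion genes had medians from -0.10 (without NF1-MET vehicle replicate 1) to -0.042 (without NF1-MET;sgP53 capmatinib replicate 2), the calls above 0 ranged from 4 to 7 and those below 0 ranged from 7 to 9. ERK-driven genes had medians from -0.035 (without NF1-MET vehicle replicate 1) to 0.021 (without NF1-MET;sgP53 capmatinib replicate 2), the calls above 0 ranged from 6 to 7 and those below 0 ranged from 4 to 7. Receptor tyrosine kinases and ligands had medians from -0.0053 (without NF1-MET;sgP53 vehicle replicate 2) to 0.055 (without NF1-MET;sgP53 vehicle replicate 1), the calls above 0 ranged from 4 to 7 and those below 0 ranged from 2 to 3. MET stability and localization genes had medians from 0.016 (without NF1-MET vehicle replicate 1) to 0.083 (without NF1-MET;sgP53 capmatinib replicate 2), the calls above 0 ranged from 2 to 4 and those below 0 ranged from 1 to 2. The p53 targets had medians from 0.029 (without NF1-MET capmatinib replicate 2) to 0.088 (without NF1-MET;sgP53 capmatinib replicate 2), the calls above 0 ranged from 5 to 9 and those below 0 ranged from 2 to 5. Interferon-stimulated genes had medians from 0.072 (without NF1-MET capmatinib replicate 2) to 0.17 (without NF1-MET;sgP53 vehicle replicate 2), the calls above 0 ranged from 0 to 2 and those below 0 ranged from 0 to 3. MHC class I genes had medians from -0.14 (without NF1-MET vehicle replicate 2) to -0.038 (without NF1-MET vehicle replicate 1), the calls above 0 stayed at 3 and those below 0 ranged from 0 to 1. TGF-beta, activin and BMP genes had medians from 0.038 (without NF1-MET capmatinib replicate 2) to 0.088 (without NF1-MET;sgP53 capmatinib replicate 2), the calls above 0 ranged from 8 to 10 and those below 0 ranged from 7 to 9. Schwann cell and neural crest genes had medians from 0.041 (without NF1-MET;sgP53 capmatinib replicate 1) to 0.081 (without NF1-MET;sgP53 vehicle replicate 1), the calls above 0 ranged from 5 to 6 and those below 0 ranged from 3 to 4. Cholesterol and fatty acid synthesis genes had medians from 0.021 (without NF1-MET capmatinib replicate 2) to 0.065 (without NF1-MET;sgP53 capmatinib replicate 2), the calls above 0 ranged from 1 to 4 and those below 0 ranged from 0 to 1. Glycolysis and hypoxia genes had medians from 0.10 (without NF1-MET capmatinib replicate 2) to 0.12 (without NF1-MET;sgP53 capmatinib replicate 2), the calls above 0 ranged from 7 to 12 and those below 0 ranged from 0 to 2. Amino acid and unfolded protein response genes had medians from -0.031 (without NF1-MET vehicle replicate 2) to 0.0085 (without NF1-MET;sgP53 capmatinib replicate 2), the calls above 0 ranged from 4 to 5 and those below 0 ranged from 5 to 8. Lysosome and autophagy genes had medians from 0.040 (without NF1-MET;sgP53 capmatinib replicate 1) to 0.072 (without NF1-MET;sgP53 capmatinib replicate 2), the calls above 0 ranged from 1 to 7 and those below 0 ranged from 1 to 2. The 48 genes with the largest treatment changes had medians from -0.40 (without NF1-MET;sgP53 capmatinib replicate 1) to -0.12 (without NF1-MET;sgP53 vehicle replicate 2), the calls above 0 ranged from 2 to 3 and those below 0 ranged from 5 to 7. When 10 counts in 7 of 8 libraries were required, which leaves out genes of low level, the medians were -0.34 for the contractile genes, 0.063 for the interferon-stimulated genes, -0.041 for MHC class I genes and -0.83 for the genes with the largest treatment changes. With library totals the median of all genes was 0.05, against -0.03.

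Among the genes described here with their own interaction, several calls rested on single libraries or on the scaling. Without NF1-MET vehicle replicate 1 the calls of *Cdkn2a*, *Ceacam1*, *Cenpe*, *Cyp1b1*, *Ddx18*, *Etv4*, *Itga4*, *Mfap5*, *Mvk*, *Pdgfrl*, *Plxnb1*, *Pycr1*, *Sh3kbp1* and *Wnt4* were lost. *Ablim1*, *Aoc3*, *Cdkn1a*, *Cenpe*, *Dhx58*, *Fos*, *Met*, *Omd*, *Parp14*, *Plxnb1* and *Wnt4* were no longer called without NF1-MET vehicle replicate 2. The fit without NF1-MET capmatinib replicate 1 lost *Aoc3*, *Ceacam1*, *Cenpe*, *Ddx18*, *Dhx58*, *Etv4*, *Fos*, *Glp1r*, *Itga4*, *Mvk*, *Plxnb1* and *Wnt4*. *Arhgap6*, *Btn1a1*, *Cdkn2a*, *Ceacam1*, *Ddx18*, *Disp2*, *Fos*, *Gfra1*, *Sh3kbp1* and *Smt3h2-ps* lost the call without NF1-MET capmatinib replicate 2. Without NF1-MET;sgP53 vehicle replicate 1 the calls of *Aoc3*, *Cdkn1a*, *Cenpe*, *Col27a1*, *Ddx18*, *Dhx58*, *Etv4*, *Fos*, *Mfap5*, *Mvk*, *Sh3kbp1* and *Wnt4* were lost. *Aoc3*, *Arhgap6*, *Cdkn2a*, *Ceacam1*, *Cenpe*, *Fos*, *Itga4*, *Mvk*, *Parp14*, *Plxnb1*, *Pycr1* and *Wnt4* were no longer called without NF1-MET;sgP53 vehicle replicate 2. The fit without NF1-MET;sgP53 capmatinib replicate 1 lost *Aoc3*, *Cdkn1a*, *Ceacam1*, *Cenpe*, *Ddx18*, *Dhx58*, *Etv4*, *Fos*, *Glp1r*, *Itga4*, *Sh3kbp1* and *Wnt4*. *Arhgap6*, *Btn1a1*, *Ceacam1*, *Ddx18*, *Disp2*, *Etv4*, *Mvk*, *Nrgn*, *Plxnb1*, *Smt3h2-ps* and *Wnt4* lost the call without NF1-MET;sgP53 capmatinib replicate 2. With library totals, the calls of *B2m*, *Calr*, *Cdkn1a*, *Cenpe*, *Col1a1*, *Ddx18*, *Egr2*, *Ephb2*, *Etv4*, *Fos*, *Grem1*, *Hsp90b1*, *Itga6*, *Mcm10*, *Mcm2*, *Mcm3*, *Met*, *Mfap5*, *Mvk*, *Omd*, *Parp14*, *Pdia3*, *Pkm*, *Plau*, *Plxnb1*, *Psph*, *Pycr1*, *Rrm2*, *Sh3kbp1*, *Slc7a5*, *Srf* and *Wnt4* were lost. Without 1 library, values moved by over 1.5 times also for *Arhgap6* (0.49 without NF1-MET;sgP53 capmatinib replicate 2), *Cdkn2a* (0.39 without NF1-MET;sgP53 vehicle replicate 2), *Mvk* (-0.13 without NF1-MET;sgP53 capmatinib replicate 2) and *Ablim1* (-1.92 without NF1-MET vehicle replicate 1).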

How the data were processed

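RNA of 8 cultures was sequenced, and the deposited table holds gene counts made by the authors, with 1 column for each library and 50600 genes under Ensembl identifiers, of which 50376 were found in GENCODE M21. The submitters' processing notes name bcl2fastq 1.9.0, Trim Galore 0.4.2, FastQC 0.11.7, STAR 2.5.2b and mm10. The counting tool's strand setting and the annotation release are not given in the sources used here. Both lines and treatments were grouped by the labels. Counts were analyzed as deposited with edgeR 4.0.16 (quasi-likelihood test in its original form, TMM factors, R 4.3.3), in 1 model with a coefficient for each of the 4 groups. SE is the size of the log2 difference divided by the square root of the F statistic. The count minimum was 10 in 2 or more libraries, and the genes left out held 0.0396% of counts. The common biological coefficient of variation was 3.495%. CPM used the library totals, which ran from 30.1 M to 42.8 M, multiplied by the TMM factors.

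The text names, in each direction, the 15 genes with the largest interaction among those called with one sign under 5 scalings, with a group mean of at least 10 CPM and with replicate responses that did not overlap between the lines. It further names the 6 largest with responses called in opposite directions, members of the gene lists (except 1, which is not reported here) and check genes. The members and lists were chosen with earlier results of these data known. *Rasd1*, *Wnt4* and *Smt3h2-ps* were chosen after their values were seen. Alternatives were other scalings, filters, a covariate, DESeq2 1.42.0, a replicate block and the fits without 1 library. The procedure was tested on simulated data. Promoter windows are from RefSeq on GRCm38.p6, and coordinates of genes are those of GENCODE M21 on mm10.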

Additional observations from a re-analysis of the deposited data

Results flagged for a closer look

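The response to capmatinib differed between the lines by the test of the difference itself for 558 genes above 0 and 849 genes below 0, and 40 of these genes had responses called in opposite directions. With 2 libraries in a group, no sample was tested for standing apart from its group.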

How the results depend on the processing

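No gene called in the reported fit was called with the opposite sign in any of the 18 alternatives. Library totals in place of TMM factors left 315 calls, 192 above 0 and 123 below, and 295 of them were among the 1407. Leaving ribosomal RNA linked genes out of the scaling gave 914 above 0. The DESeq2 Wald test gave 894 calls, with 461 below 0, and 29 of at least 2-fold below 0. Without 1 library the total ranged from 970 to 1244, the count above 0 from 377 to 713 and below 0 from 509 to 738, where 509 came without NF1-MET;sgP53 capmatinib replicate 2, the library with the least *Gm42418*. Calls of at least 2-fold ranged from 60 to 79 in all, from 22 to 36 above 0 and from 37 to 57 below, a count added after the data were seen. The cause of these changes was not tested. The deviations of same-numbered libraries correlated by -0.054 to 0.10 between groups. These correlations were taken over genes of all levels, including those with few counts, and cannot exclude that the replicate numbers pair the samples. A replicate block gave 1524 calls, 619 above 0 and 905 below, and 1403 of the 1407 were among them. Of the 143 single genes recomputed, 135 were called, and of these *Smt3h2-ps* alone changed sign, ranging from -0.058 (without NF1-MET;sgP53 capmatinib replicate 2) to 9.63 (without replicate 1 of that group) over the fits without 1 library, and 70 of the 135 stayed past the threshold in every alternative that gave a value. *Trp53*, *Zmat3* and *Prkce*, which were not called, also changed sign in an alternative. The fitted values of *Smt3h2-ps* rest on capmatinib libraries of NF1-MET without any count, so neither their size nor their sign measures a response. Of 1395 list values, 250 moved by more than their limit, which was 1.5-fold for a count and the spread between replicates for a median. Leaving out the ribosomal RNA linked genes gave no value for their list, and a minimum of 10 counts in 7 of 8 libraries gave none for the endothelial and epithelial markers. With 2 libraries in a group and 1 line for each genotype, the p-values cover the spread between cultures of these lines.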

Other observations

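*Rasd1*, a RAS-related GTPase induced by glucocorticoids, had 17 and 27 counts in vehicle-treated and 0 and 1 in capmatinib-treated NF1-MET, and 12 and 14 counts in vehicle-treated and 3 and 7 in capmatinib-treated NF1-MET;sgP53. Its capmatinib counts did not overlap between the lines, and the interaction was called in edgeR's quasi-likelihood test (adjusted p = 0.0476), a call that was lost in 11 alternatives. *Ankrd37*, a small ankyrin repeat protein induced in hypoxia whose exons overlap *Lrp2bp* and *Ufsp2* on the other strand, had an interaction of 1.31 on the log2 scale, and *Adm*, the vasodilator adrenomedullin, one of -0.49, lost in 3 alternatives (library totals and without replicate 1 of the vehicle libraries of either line). Among the ribosomal RNA and small RNA linked genes, none of the 8 tested was called in edgeR's test or the DESeq2 Wald test and 0 had an unadjusted p under 0.05, with a median interaction of -0.71. With library totals 6 of the 8 were called below 0, and with a replicate block 2. Without NF1-MET;sgP53 capmatinib replicate 1, 7 were called below 0 and the median was -2.82, whereas without replicate 2 of that group it was 0.11. It was also near 0 without NF1-MET;sgP53 vehicle replicate 1 (-0.024), and over the other fits without 1 library it ranged from -1.28 to -0.36.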
